A study of Homo sapiens with 6 samples.

Results

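The 10 genes described here encode the proteins with which a cell detects misplaced or foreign nucleic acid, and the adaptors that pass the signal on: RIGI (DDX58 in older annotation), IFIH1, DHX58, MAVS, CGAS, STING1, TLR3, ZBP1, EIF2AK2 and ADAR. They were chosen by name for their role, with earlier results of these data known. All 10 are among the 63140 genes of the deposited count table. Their mRNA was compared between NOZ, an established human gallbladder cancer line, and NOZ-R, a line made from it by raising the dose of the nucleoside analogue gemcitabine in steps, with 3 poly-A RNA-seq libraries of each. NOZ is the parental line. The sources used here do not say which doses were reached, whether the drug was present at harvest, or whether NOZ-R is a clone or a pool. It is 1 resistant line, and the labels do not say whether its 3 libraries came from separate cultures, so the spread behind every p-value may be technical only.

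RIGI and IFIH1 (also called MDA5) are helicases that bind double-stranded RNA in the cytosol and signal through MAVS, an adaptor on the mitochondrial surface. DHX58 (LGP2) is a related helicase without the signalling domain that tunes the others. CGAS binds cytosolic DNA and makes the messenger cGAMP, which activates STING1 on the endoplasmic reticulum, and both adaptors lead through the kinase TBK1 to the transcription factor IRF3 and to interferon. TLR3 reads double-stranded RNA inside endosomes, ZBP1 binds nucleic acid in the left-handed Z form and can start necroptosis, EIF2AK2 (PKR) halts translation when it binds double-stranded RNA, and ADAR edits adenosine to inosine in such RNA, which keeps a cell's own transcripts from activating IFIH1 and EIF2AK2. Many of these genes are themselves induced by interferon, through promoter elements built from repeated GAAA that interferon-activated factors bind.

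Promoters are shown here because members that rose differ in whether the promoters at hand hold a match to this element. RefSeq promoters of GRCh38.p14 (300 bases, from 250 before the transcript start to 50 after it) were at hand for 6 of the 10 genes. Both strands were searched for GAAA, any 2 bases and GAAA (the 2-base spacer form), and for TTCNNNGAA, the element of the other interferon response. GAAANGAAA, with a spacer of 1 base, was added after the RIGI sequence was seen. The stretches below run from 220 bases before the start to the first 10 of the transcript, 5′ to 3′ on the gene's strand, with matches to either GAAA form in capitals.
IFIH1, chr2:162318675-162318904, minus strand: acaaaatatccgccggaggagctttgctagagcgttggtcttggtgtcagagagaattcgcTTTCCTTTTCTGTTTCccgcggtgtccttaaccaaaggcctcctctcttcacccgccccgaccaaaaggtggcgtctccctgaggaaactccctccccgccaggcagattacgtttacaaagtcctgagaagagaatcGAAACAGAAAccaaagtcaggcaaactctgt
TLR3, chr4:186068936-186069165, plus strand: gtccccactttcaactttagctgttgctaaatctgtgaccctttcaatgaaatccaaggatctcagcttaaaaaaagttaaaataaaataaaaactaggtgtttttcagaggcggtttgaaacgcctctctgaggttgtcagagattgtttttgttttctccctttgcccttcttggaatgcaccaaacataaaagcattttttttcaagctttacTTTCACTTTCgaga
EIF2AK2, chr2:37156971-37157200, minus strand: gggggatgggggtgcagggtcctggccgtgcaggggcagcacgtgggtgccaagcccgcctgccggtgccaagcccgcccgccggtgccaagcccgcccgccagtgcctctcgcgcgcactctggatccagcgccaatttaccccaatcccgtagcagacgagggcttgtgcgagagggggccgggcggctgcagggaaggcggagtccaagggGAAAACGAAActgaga
RIGI, chr9:32526187-32526416, minus strand: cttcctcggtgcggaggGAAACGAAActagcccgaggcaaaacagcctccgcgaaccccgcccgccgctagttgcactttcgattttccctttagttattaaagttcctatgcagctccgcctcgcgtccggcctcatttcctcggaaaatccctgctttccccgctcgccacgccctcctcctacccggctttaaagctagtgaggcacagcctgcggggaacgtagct
MAVS, chr20:3846614-3846843, plus strand: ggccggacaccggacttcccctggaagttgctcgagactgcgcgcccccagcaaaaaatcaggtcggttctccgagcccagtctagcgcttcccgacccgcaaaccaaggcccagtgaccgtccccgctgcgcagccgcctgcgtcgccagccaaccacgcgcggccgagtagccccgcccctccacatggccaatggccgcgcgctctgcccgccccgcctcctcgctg

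IFIH1 held 3 matches to the 2-base spacer form. The nearest to the start begins at -21 (its first base, counted from the transcript start) and reads GAAACAGAAA, and 2 that overlap each other on the opposite strand begin at -153 and -159. EIF2AK2 held 1, GAAAACGAAA at -6, and TLR3 held 1 on the opposite strand, GAAAGTGAAA at -4, so both lie across the start. RIGI had no match to this form and 1 to the form with the shorter spacer, GAAACGAAA at -203. MAVS and the 3 start sites listed for ADAR held neither form in this window. Which ADAR isoform each of these sites belongs to was not examined, and matches outside the window were not searched for. TTCNNNGAA matched at 2 places in the TLR3 promoter and nowhere in the other five. Among all 34796 distinct promoters of the same length, 3.57% held the 2-base spacer form, 3.12% GAAANGAAA and 7.67% TTCNNNGAA. Of the tested genes with a promoter, 4.09% held the 2-base spacer form, against 11.3% of the 888 that were at least 2-fold higher in NOZ-R and 3.26% of the 706 that were at least 2-fold lower. These are matches of letters, given as a description.

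Total counts per library lay between 14136037 and 19244923, and the ranges of the lines overlapped. NOZ replicate 2 stood apart from the other NOZ libraries in GC content (rank correlation across genes of its deviation with transcript GC -0.495, against 0.312 and 0.365). The keratins KRT7, KRT8, KRT18 and KRT19 of biliary epithelium were abundant in both lines, and the E-cadherin gene CDH1 was low (1.03 CPM in the parental libraries, against 0.29 CPM in the resistant ones). A filter on low counts left 14386 genes to test.

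All 10 genes passed that filter, TLR3 and ZBP1 through their NOZ-R counts. By edgeR's quasi-likelihood test, 9 of the 10 were higher in NOZ-R and MAVS was lower, where 30.4% of all tested genes were higher, 29.8% lower and 60.2% changed in either direction. Over the 8 with at least 10 counts in every library, so without TLR3 and ZBP1, 7 were higher. Of these 8, 4 were at least 2-fold higher (IFIH1, DHX58, EIF2AK2 and ADAR), against 8.96% of all tested genes, and 0 at least 2-fold lower (7.57%). A test against a 2-fold change also called 4 of the 8 (background 5.89%). The median log2 fold change of the 8 was 1.05, beside -0.01 for all tested genes. With TLR3 and ZBP1, which had to differ to be tested, the 2-fold counts were 6 of 10 and the median was 1.23. The groups did not overlap in TMM-scaled CPM (counts scaled to 1e6 per library) for any of the 10, which was also so for 65.3% of all tested genes. NOZ-R lay wholly above NOZ for 9 of them (32.9% of all tested genes) and wholly below for MAVS (32.4%). In bulk RNA, a change in every cell and a change in the share of cells with the transcript cannot be told apart.

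**Figure D1:**
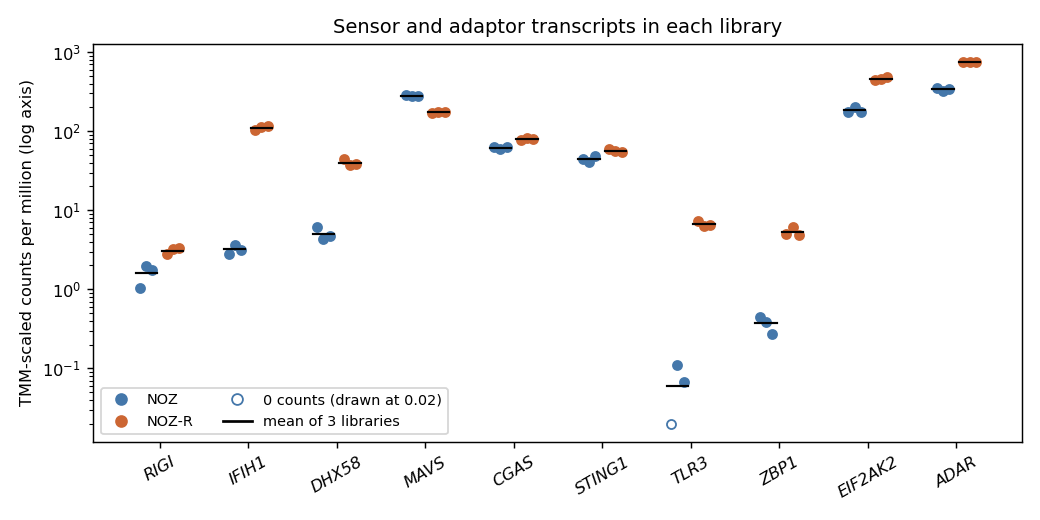
TMM-scaled CPM (log axis) of each sensor and adaptor in the 3 NOZ and 3 NOZ-R libraries, with points for libraries, bars for means and an open point for the NOZ library with 0 TLR3 counts. NOZ-R lies above NOZ in every gene except MAVS, and IFIH1 goes from a mean of 3.19 to 110.5 CPM.

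Among the RNA helicases the difference between the lines was uneven. IFIH1 (chromosome 2, 162267079 to 162318703, GRCh38) measured 2.80, 3.66 and 3.12 CPM in NOZ replicates 1 to 3 and 102.05, 112.1 and 117.2 CPM in NOZ-R replicates 1 to 3. The 3 NOZ-R libraries all lay far above the highest NOZ library. Its log2 fold change was 5.11 ± 0.106 (SE, adjusted p of 2.45e-13 in edgeR), a 34.6-fold rise, and 0.966% of tested genes had a larger one. DHX58 (chromosome 17, 42101404 to 42112733) measured 6.14, 4.32 and 4.67 CPM in the parental libraries, against 43.8, 37.0 and 38.4 CPM in the resistant ones. It was the more abundant of the pair in each NOZ library and the less abundant, per length, in each NOZ-R library, and it rose by 2.97 ± 0.126 on the log2 scale (SE, adjusted p of 2.75e-10 in edgeR).

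RIGI, the sensor of short RNA ends with a triphosphate, stayed near the bottom of the count range in both lines. Its counts were 21, 36 and 26 in NOZ and 50, 52 and 49 in NOZ-R, or 1.05, 1.99 and 1.76 CPM against 2.76, 3.22 and 3.29 CPM. NOZ replicate 1 was the lowest library, and the groups did not overlap. The log2 fold change was 0.96 ± 0.252 (SE, adjusted p of 0.00476 in edgeR), with a 95% interval of 0.42 to 1.502. RIGI lies on chromosome 9 (32455705 to 32526324), whose tested genes had a median of -0.64, the lowest of any chromosome. Both flanking genes were lower in NOZ-R: ACO1, at lower coordinates, went from 93.3 to 46.2 CPM and TOPORS, on the other side, from 56.5 to 35.1 CPM (means, n = 3 each).

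The level of RIGI carries a limit from the counting. Of 485 protein-coding genes with more than 90% of their exonic bases shared with another gene model in the GENCODE release 29 annotation, 96.1% had at most 20 counts over all 6 libraries. The share was 59.1% with over 50 up to 90% shared, 20.9% with a smaller part shared and 40.2% of the 11032 genes with no shared base. In that release no exonic base of RIGI is shared. The deposited tables, however, imply a RIGI model of 10485 bases, where release 29 has 4353, and the sharing in the release that the authors used was not tested. The level of RIGI against other genes is therefore uncertain. IFIH1 and DHX58 have no shared exonic base and implied lengths (5225 and 3824 bases) close to those of release 29 (5108 and 3843). Longer implied lengths than in release 29 were also found for ADAR (12864 against 9691), STING1 (4798 against 3850) and TLR3 (7496 against 6724). Outside the members, TBK1 is an example (14716 against 4762). FPKM values use the implied lengths, and whether the counts of these genes are affected was not tested.

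MAVS, the adaptor that RIGI and IFIH1 need, was the 1 member that fell. It measured 290.7, 277.3 and 277.1 CPM in the parental libraries, against 169.6, 174.0 and 174.0 CPM in the resistant ones, and every NOZ-R library lay below every NOZ library. MAVS (chromosome 20, 3846799 to 3876123) fell by 0.71 ± 0.0519 on the log2 scale (SE, adjusted p of 6.68e-08 in edgeR), a 1.63-fold decrease with a 95% interval of -0.82 to -0.60. The median of chromosome 20 was -0.08, and the genes flanking MAVS were not examined.

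Sensor and adaptor moved in opposite directions. Per length, in the deposited FPKM values, IFIH1 stood at 0.0217, 0.0297 and 0.0253 of the MAVS level in the NOZ libraries and at 1.36, 1.45 and 1.52 times it in the NOZ-R libraries. The ratio was below 0.03 throughout NOZ and above 1.3 throughout NOZ-R. The ratio DHX58 over IFIH1 went the other way, from 2.22 ± 0.709 to 0.495 ± 0.0795 (mean ± SD, n = 3 per line). The summed FPKM of RIGI, IFIH1 and DHX58 went from 2.17 ± 0.139 to 30.4 ± 0.717 (mean ± SD, n = 3 per line).

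CGAS and STING1, the DNA sensor and its adaptor, rose by small and similar amounts, 1.28-fold and 1.27-fold. CGAS (chromosome 6, 73413515 to 73452276) measured 62.5, 59.5 and 62.8 CPM in the parental libraries, against 76.5, 81.0 and 78.5 CPM in the resistant ones, a log2 fold change of 0.35 ± 0.0622 (SE, adjusted p of 0.000249 in edgeR). Chromosome 6 had a median of 0.33, so CGAS changed by 0.02 relative to the other tested genes of its chromosome. STING1 (chromosome 5, 139475534 to 139482935) measured 44.4, 40.9 and 48.6 CPM in the parental libraries, against 59.9, 55.6 and 54.4 CPM in the resistant ones. Its log2 fold change was also 0.35, with an error of 0.0786 (SE, adjusted p of 0.00181 in edgeR), on a chromosome whose median was -0.05. Scaled by library size alone, both estimates came to 0.22. The FPKM ratio CGAS over STING1 was 1.59 ± 0.0975 in NOZ and 1.60 ± 0.114 in NOZ-R (mean ± SD, n = 3 per line), and the libraries of the lines overlapped. CGAS shares 180 of its 4155 exonic bases with DDX43 on the opposite strand, whose reads cannot be separated without strand.

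TLR3, the endosomal receptor, had almost no counts in NOZ and a low level in NOZ-R. It had 0, 2 and 1 counts in the parental libraries, against 131, 103 and 96 in the resistant ones (7.24, 6.38 and 6.44 CPM). The ratio of summed counts was 118.3, with an exact 95% counting interval of 40.1 to 576.5, and edgeR's adjusted p was 4.21e-09. TLR3 (chromosome 4, 186069152 to 186088069) had the largest change of the 10, and 0.556% of tested genes had a larger fitted one. Only 3 counts stand behind its NOZ level, so the fitted log2 fold change of 6.71 rests on them, and it was 6.09 without NOZ replicate 1 and 7.53 without NOZ replicate 2.

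ZBP1, the Z-nucleic acid sensor, was likewise low in NOZ. It had 9, 7 and 4 counts in the parental libraries, against 90, 100 and 73 in the resistant ones, or 0.45, 0.39 and 0.27 CPM against 4.98, 6.19 and 4.89 CPM. The NOZ-R libraries all lay far above the highest NOZ library. ZBP1 (chromosome 20, 57603846 to 57620576) rose by 3.80 ± 0.265 on the log2 scale (SE, adjusted p of 3.96e-08 in edgeR).

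EIF2AK2 and ADAR were abundant in the parental line and rose by similar factors, 2.52-fold and 2.20-fold. EIF2AK2 (chromosome 2, 37099210 to 37157065) measured 173.6, 201.3 and 175.4 CPM in the parental libraries, against 445.1, 452.1 and 487.7 CPM in the resistant ones, a log2 fold change of 1.33 ± 0.0659 (SE, adjusted p of 1.24e-09 in edgeR). ADAR (chromosome 1, 154582057 to 154628013) measured 346.8, 326.3 and 341.4 CPM in the parental libraries, against 741.2, 740.7 and 749.2 CPM in the resistant ones, a log2 fold change of 1.14 ± 0.0481 (SE, adjusted p of 2.63e-10 in edgeR). For both, the NOZ-R libraries lay above all NOZ libraries. EIF2AK2 shares 401 exonic bases with a pseudogene and 35 with GPATCH11, both on the opposite strand. Gene counts do not separate the long, interferon-inducible ADAR isoform from the short constitutive one. The FPKM ratio ADAR over IFIH1 went from 43.7 ± 7.10 to 2.74 ± 0.184 (mean ± SD, n = 3 per line).

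**Figure D2:**
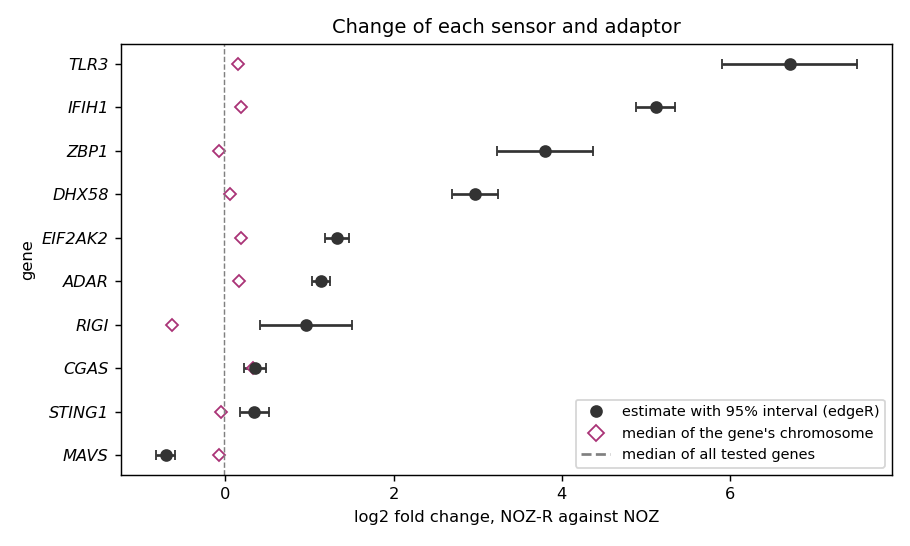
Log2 fold change of each gene in NOZ-R against NOZ with its 95% interval, the median of its chromosome (diamonds) and the median of all tested genes (dashed line). CGAS lies on the median of chromosome 6 at 0.33, RIGI lies at 0.96 where chromosome 9 is at -0.64, and MAVS is the 1 gene to the left.

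Per length, the order of the members changed between the lines. In NOZ the mean FPKM ran from ADAR (27.4) and MAVS (24.98) through EIF2AK2 (17.4), CGAS (15.4) and STING1 (9.71) to DHX58 (1.38), IFIH1 (0.637), RIGI (0.159), ZBP1 (0.0713) and TLR3 (0.0083), and no neighbours in that order overlapped in their 3 libraries. In NOZ-R it ran from ADAR (55.2) and EIF2AK2 (39.9) through IFIH1 (20.2), CGAS (18.0), MAVS (13.99), STING1 (11.3) and DHX58 (9.92) to ZBP1 (0.946), TLR3 (0.852) and RIGI (0.281). There STING1 and DHX58 overlapped, as did ZBP1 and TLR3. MAVS went from rank 2 to rank 5 and IFIH1 from rank 7 to rank 3.

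The summed FPKM of the 10 genes went from 97.1 ± 0.751 to 170.5 ± 2.31 (mean ± SD, n = 3 per line). Of that sum MAVS made up 25.7% ± 0.526 in NOZ and 8.20% ± 0.0984 in NOZ-R, and IFIH1 0.656% ± 0.0964 and 11.8% ± 0.662 (mean ± SD, n = 3 per line). ADAR held the largest share in both, 28.2% ± 0.608 and 32.4% ± 0.331. FPKM values are scaled by total counts alone, so sums across lines carry that scaling, while shares within a library do not.

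**Figure D3:**
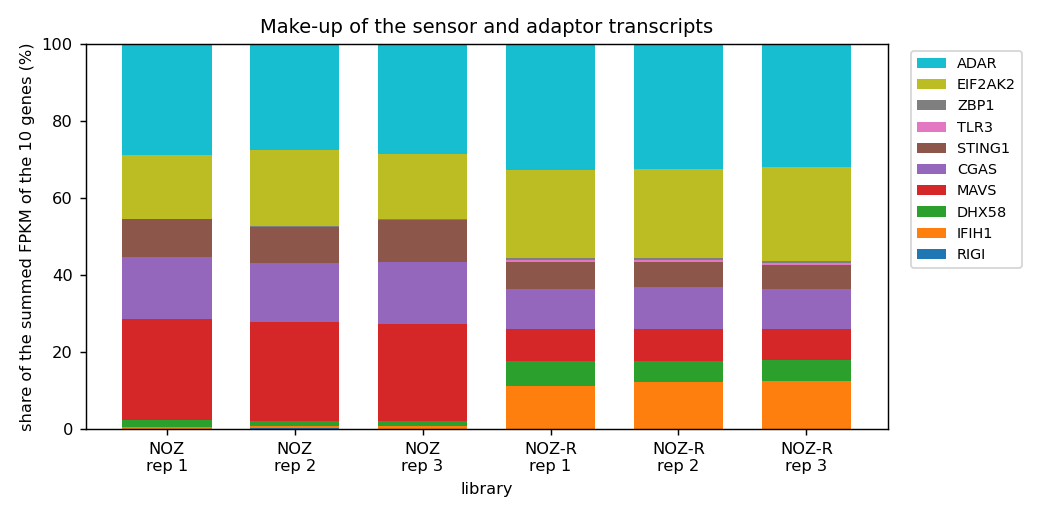
Share (%) of the summed FPKM of the 10 genes taken by each gene in every library. In NOZ-R the MAVS share is 8.20% instead of 25.7%, and the IFIH1 and DHX58 shares, a thin strip in NOZ, are 11.8% and 5.82%.

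The other genes of these pathways were followed in lists by role, also chosen with earlier results of these data known. Together the lists hold 225 genes of the table, of which 184 could be tested, and 81 were higher and 50 lower, or 44.0% and 27.2%, where the shares over all tested genes were 30.4% and 29.8%. Scaled by library size alone the split was 54 higher and 65 lower, while all tested genes went from 4379 higher and 4284 lower to 3316 and 5468. Under it the median over all tested genes shifted by -0.13 (log2), a size that the list medians given next do not exceed by much. A change of at least 2-fold was called for 19 list genes upward, or 10.3%, near the 8.96% of all tested genes. It was called for 3 downward, or 1.63%, where all tested genes gave 7.57%.

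Cofactors and regulators of the RNA sensors went both ways, with 10 of 32 higher, 11 lower and a median of -0.06. These are 31.25% and 34.4%, near the 30.4% and 29.8% of all tested genes. TRIM25, a ubiquitin ligase that activates RIGI, rose from 177.5 ± 10.4 to 512.6 CPM ± 9.38 (mean ± SD, n = 3 per line), a log2 fold change of 1.53 ± 0.0561 (SE, adjusted p of 6.28e-11 in edgeR). NLRC5, a regulator of MHC class I genes that also binds RIGI and IFIH1, rose by 1.73, and RIOK3, a kinase that acts on IFIH1, by 1.21. The helicase DDX60 rose by 1.16. The largest decreases were small: DDX3X, a helicase that joins the MAVS complex, fell by 0.44, TKFC, an inhibitor of IFIH1, fell by 0.43, and the deacetylase HDAC6 fell by 0.42. DDX3X and HDAC6 are on chromosome X, whose median was -0.44.

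On the MAVS platform and among its kinases and factors, 16 of 37 were higher and 11 lower (median 0.11). These are 43.2% and 29.7%, where all tested genes gave 30.4% and 29.8%. Scaled by library size alone, 8 were higher and 12 lower. The transcription factor IRF7 measured 7.34, 6.87 and 10.7 CPM in the parental libraries, against 54.0, 46.1 and 52.9 CPM in the resistant ones, a log2 fold change of 2.64 ± 0.133 (SE, adjusted p of 1.57e-09 in edgeR). All its NOZ-R libraries lay above its NOZ libraries. IRF3, the constitutive partner, rose by 0.24 (adjusted p of 0.0102 in edgeR). The kinase TBK1, on which the MAVS and STING1 branches meet, measured 37.8, 49.9 and 33.2 CPM in the parental libraries, against 27.4, 28.6 and 27.5 CPM in the resistant ones and fell by 0.54 ± 0.122 on the log2 scale (SE, adjusted p of 0.00182 in edgeR). NOZ replicate 2, the library that stood apart in GC content, was its highest. The related kinase IKBKE was at 11.4 CPM ± 1.53 and 12.3 CPM ± 1.60 (mean ± SD, n = 3 per line) and did not pass (log2 fold change 0.10, edgeR's adjusted p 0.550). IFIT3, which bridges MAVS and TBK1, rose by 3.07 and the ubiquitin-like modifier ISG15 by 1.76. MARCHF5, a mitochondrial ubiquitin ligase, fell by 0.77 and the IKK subunit CHUK fell by 0.69, both on chromosome 10 with its median of -0.60.

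Of 59 partners of DNA sensing, 28 were higher and 14 lower, and their median was 0.15. These are 47.5% and 23.7%, where all tested genes gave 30.4% and 29.8%. Scaled by library size alone, 18 were higher and 19 lower. ENPP1, the enzyme that breaks down cGAMP outside cells, had 3, 2 and 4 counts in the parental libraries, against 935, 855 and 810 in the resistant ones. This is 0.15, 0.11 and 0.27 CPM against 51.7, 53.0 and 54.3 CPM, with a log2 fold change of 8.22 (adjusted p of 1.84e-13 in edgeR), larger than that of any of the 10 sensors and adaptors. Only 9 counts stand behind its NOZ level. SMPDL3A, another enzyme that degrades cGAMP, rose by 1.10, and the transporter gene SLC46A3 by 1.65. The other transporter and channel genes of the list differed. SLC19A1, ABCC1 and LRRC8C rose by 0.66, 0.61 and 0.37, LRRC8A fell by 0.56, and SLC46A1 did not pass (-0.06). SLC46A2 and LRRC8E were too low to test. The nuclear DNA sensor IFI16 rose from 66.8 CPM ± 7.60 to 224.4 CPM ± 16.1 (mean ± SD, n = 3 per line), a log2 fold change of 1.75 ± 0.0818 (SE, adjusted p of 7.25e-10 in edgeR). USP18, a deISGylase listed for its binding to STING1, rose by 5.72 and the lectin LGALS9 by 4.19. INSIG1, which works with a ubiquitin ligase on STING1, fell by 0.97, the deubiquitinase USP20 fell by 0.70, and ZDHHC1, a palmitoyltransferase below 1 CPM in both lines, fell by 2.37. RAD50 had a log2 fold change of -0.79, but 79.7% of its exonic bases are shared with other gene models. The cytosolic DNA sensor AIM2 had 1 count over NOZ and 3 over NOZ-R. Its implied length is 6426 bases, against 2009 in release 29, so its level is uncertain, as for RIGI.

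In the endosomal arm 10 of 20 were higher and 3 lower (median 0.22). These are 50% and 15%, where all tested genes gave 30.4% and 29.8%. Scaled by library size alone, 7 were higher and 5 lower. TICAM1, the adaptor of TLR3, was at 20.6 CPM ± 2.53 in NOZ, beside 24.3 ± 2.06 in NOZ-R (mean ± SD, n = 3 per line), without overlap between the lines. Its log2 fold change of 0.24 did not pass after adjustment (adjusted p of 0.0616 in edgeR). The adaptor of the other endosomal receptors, MYD88, rose by 1.09, the lysosomal protease CTSS by 1.01 and the kinase IRAK2 by 0.73. IRAK1 and IRAK4 fell by 0.72 and 0.60, and MEX3B, an RNA-binding protein that helps TLR3, fell by 1.03. TLR7, TLR8 and TLR9, which read single-stranded RNA and DNA, had at most 1 count in any library, but 86.3% of the exonic bases of TLR9 are shared with another gene model, so its level cannot be read from this.

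Of 21 genes that act with ZBP1 or EIF2AK2, 10 were higher and 2 lower (median 0.11). These are 47.6% and 9.52%, where all tested genes gave 30.4% and 29.8%. Scaled by library size alone, 8 were higher and 4 lower. RIPK3, the kinase that ZBP1 recruits, had 0 counts in all 6 libraries. That allows up to 0.0568 CPM over NOZ and 0.0610 CPM over NOZ-R (3 counts per group, counting error only). RIPK3 shares 11.0% of its exonic bases with another gene model in release 29, and sharing in the authors' release was not tested. MLKL, its substrate, was present and rose by 0.32, from 35.4 to 44.3 CPM (adjusted p of 0.00128 in edgeR). Among the genes listed with EIF2AK2, the translation-dependent factor ATF4 rose by 1.13. The phosphatase subunit PPP1R15A, which reverses that kinase's mark, rose by 0.68. The kinases EIF2AK1 and EIF2AK4 of the same list rose by 0.27 and 0.22, and EIF2AK3 did not pass (0.07). Kinase activity was not tested. The caspase CASP6 fell by 0.48 and ADARB1, a second RNA-editing enzyme, fell by 0.82, from 5.99 to 3.37 CPM (adjusted p of 0.00284 in edgeR), while ADAR rose.

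Among genes that dispose of or process nucleic acid, 8 of 21 were higher and 9 lower (median -0.15). These are 38.1% and 42.9%, where all tested genes gave 30.4% and 29.8%. PNPT1, which degrades double-stranded RNA in mitochondria, rose by 1.77 ± 0.0559 (SE, adjusted p of 1.36e-11 in edgeR), from 72.2 CPM ± 0.879 to 246.5 CPM ± 7.06 (mean ± SD, n = 3 per line). SAMHD1, a deoxynucleotide triphosphohydrolase, rose by 1.53 and ATAD3A, a mitochondrial membrane ATPase, by 0.64. The histone mRNA processing gene LSM11 fell by 0.73 and the ribonuclease RNASET2 fell by 0.85 at low level, with the lines overlapping. TREX1, the main cytosolic DNA exonuclease, is listed at 0 in every library, and all of its exonic bases are shared with another gene model, so nothing can be said of its level.

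**Figure D4:**
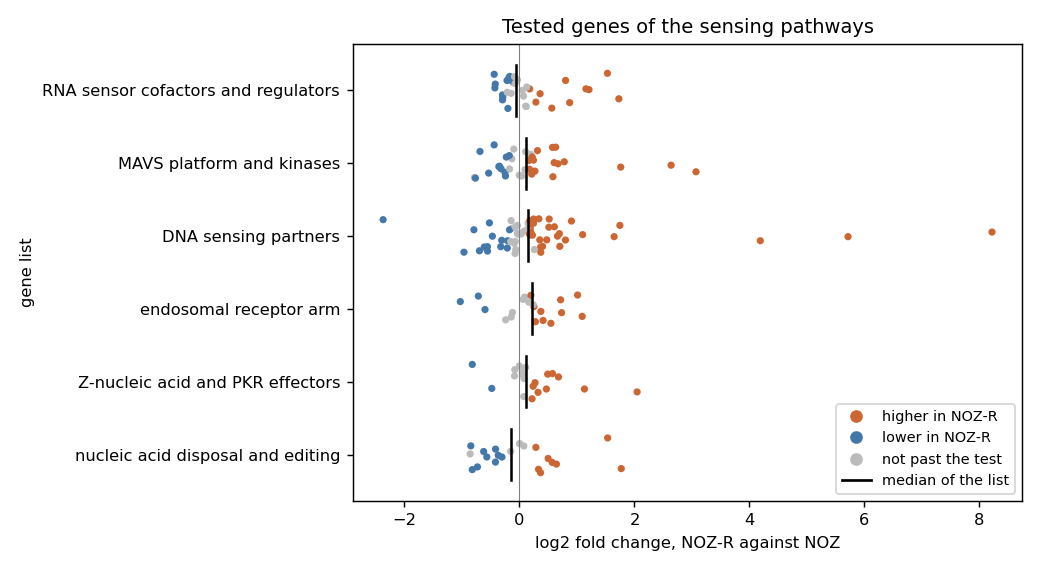
Log2 fold change of each tested gene in 6 of the lists, coloured by its call, with the median of each list as a bar. Most genes lie within 1 of 0, list medians run from -0.15 to 0.22, and the points far to the right include ENPP1 at 8.22.

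Interferon ligand genes other than IFNE had few or no counts in both lines. How reads that match several genes were counted is not given in the sources used here. Of 22 ligand genes, 13 had no count in any library, and IFNB1, the usual product of these pathways, had 0 counts over NOZ and 3 over NOZ-R. The epithelial interferon IFNE was the 1 ligand with enough counts to test, and it fell by 1.44 ± 0.257 on the log2 scale (SE, adjusted p of 0.00028 in edgeR), from 6.42 CPM ± 2.41 to 2.36 CPM ± 0.386 (mean ± SD, n = 3 per line). IFNE lies on chromosome 9, with its median of -0.64.

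Markers of other cells that express these sensors were measured beside them. The summed level of 14 leukocyte markers was 22.3 to 30.9 CPM across NOZ and 17.4 to 19.1 CPM across NOZ-R, a sum carried mostly by CORO1A and CD79A. Of the 5 leukocyte markers tested, those 2 were lower and CSF1R (0.505 to 1.85 CPM) and LAPTM5 (1.16 to 2.07 CPM) were higher. Too low to test, PTPRC went from 0.882 to 0.227 CPM, CD53 from 0.161 to 0.665 CPM and ITGAM from 0.041 to 0.337 CPM. Of 6 markers of plasmacytoid and dendritic cells, CLEC4C, IL3RA, FLT3 and CLEC9A were at 0 in every library. The other two were TCF4, which rose from 0.118 to 1.42 CPM, and LILRA4 with 1 count. The sum of 9 fibroblast markers went from a range of 3.15 to 3.72 CPM in NOZ to a range of 8.18 to 8.92, with COL3A1 and FAP called higher. COL1A1 went the other way, from 2.59 to 1.79 CPM. Neither it nor PDGFRB (0.379 to 0.676 CPM) passed the test. DCN, LUM and FAP had 0 counts in every NOZ library and 5 to 20 in each NOZ-R library, while COL1A2 had at most 3 and THY1 at most 1. The sum of 6 endothelial markers went from between 2.57 and 3.30 CPM to between 9.18 and 10.2 CPM through PECAM1. Too low to test, CDH5 went from 0.545 to 0.401 CPM and TEK from 0.337 to 0.0592 CPM. VWF and ERG had at most 2 counts in any library and KDR at most 1. The part of these transcripts in the sensor results was not tested.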

How the data were processed

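The authors deposited raw counts and FPKM values of 63140 genes in 6 libraries. Dividing each count by its FPKM and by the sum over genes returned a single length per gene, so the deposited FPKM carry no correction beyond library total and length. Per the submitters' processing notes, reads were processed with fastp 0.22.0 on GRCh38. For aligner, counting tool, strand setting and annotation release: not given in the sources used here. The labels' protocols describe no strand-marking step and no molecular identifiers. Every row named a gene.

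Counts were fitted with edgeR 4.0.16 in R 4.3.3 (filterByExpr on the group, TMM factors, quasi-likelihood test, Benjamini-Hochberg adjustment over 14386 genes at 0.05). CPM values use TMM-scaled library sizes. A standard error is the log2 fold change divided by the square root of F, and can be too small for genes with few counts. Intervals of count ratios are exact binomial (95%) and cover counting error only. Positions, exons and transcript GC (found for 96.7% of tested genes) came from GENCODE release 29, and promoters from RefSeq (GRCh38.p14). Replicates were compared (mean chi-square per gene 2.19 to 11.2 between pairs of a line, where pure sampling noise would give about 1) and all 6 were kept. The fitting function was tested on simulated counts.

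The members and lists were chosen with earlier results of these data known. Named genes were the 10 members, 16 pathway genes named always, and up to 3 increases and 3 decreases per list at a mean of at least 1 CPM. DDX60, SMPDL3A, SLC46A3 and ZDHHC1 were named after their values were seen, as were ACO1, TOPORS and PCBP1. So were EIF2AK1, EIF2AK3, EIF2AK4, SLC19A1, SLC46A1, SLC46A2, ABCC1, LRRC8A, LRRC8C and LRRC8E. Some genes that the rule names are not reported here. The alternatives changed the scaling (size factors of DESeq2, upper quartile, none beyond library size), the filter (none, or 1 CPM in 3 libraries), the test (DESeq2 1.42.0, limma 3.58.1 on log2(FPKM + 1) or log2(FPKM + 0.1), edgeR against a 2-fold change), the cutoff (0.01), and the model (replicate block, GC correction by loess with span 0.3, chromosome medians removed, each library left out). Python 3.11.15, pandas 2.3.3, scipy 1.17.1 and matplotlib 3.10.9 were used for the rest.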

Additional observations from a re-analysis of the deposited data

How the results depend on the processing

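Across the alternatives none of the 190 estimates for the 10 genes changed sign. Of the 180 with a test, 4 lost the call, all against a 2-fold change (RIGI, MAVS, CGAS and STING1). The counts of 9 higher and 1 lower members held without each library in turn, and in every other setting except that test, which called 6 and 0. It called 847 higher and 442 lower genes over the whole table, and 15 and 1 of the list genes. The limma fits on log2(FPKM + 1) and log2(FPKM + 0.1) called 53 list genes higher each. They understate low genes: the smallest values for TLR3, ZBP1 and RIGI, 0.88, 0.86 and 0.14, came with the pseudocount of 1. STING1 had adjusted p-values between 0.00021 and 0.0441 over the settings other than the 2-fold test, and RIGI between 0.000708 and 0.0266. Removing chromosome medians left CGAS at 0.02 and raised RIGI to 1.60. With single libraries left out, RIGI lay between 0.71 and 1.17. List genes higher then numbered 72 to 84 and lower 39 to 52. Of 252 alternative counts of single lists, 32 differed by more than 1.5 times, 13 of them with the 2-fold test and 0 with a library left out. With library size only, the MAVS platform list had 8 higher instead of 16, DNA sensing 18 instead of 28 and disposal 5 instead of 8. The MAVS platform list had 10 with GC correction. The replicate numbers share no stated culture or day, and same-numbered libraries of the lines did not deviate together (r = 0.068, -0.022 and -0.036). The replicate block gave 4324 higher and 4180 lower genes, 81 and 46 list genes and the same 9 and 1 members. A sum of 3 counts over NOZ limits the size of the TLR3 change, and few counts limit RIGI and ZBP1.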

Other observations

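By distance over the 6 libraries between log2 CPM profiles centred on each gene's mean, among 12477 other tested genes, the profile most like TLR3 was that of DAPK1, a death-associated kinase, at 0.351 (from 0.535 to 27.2 CPM), then the basement membrane collagen COL4A6 and the bradykinin receptor BDKRB2. For CGAS the nearest were MRFAP1 (distance 0.0296), EIF4E2 and GALNT10, with log2 fold changes of 0.35, 0.37 and 0.33. For RIGI they were the pseudogene ADAM20P3, the channel TRPV3 and the kinase MAP2K6, at 0.86, 1.03 and 1.06. With 6 libraries in 2 groups, such distances mostly reflect the size of the difference between the lines.

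PCBP1, an RNA-binding protein on the MAVS list that most cells express abundantly, had 40 counts over all 6 libraries, and 52.2% of its exonic bases are shared with another gene model in GENCODE release 29. With TREX1 at 0 and RAD50 at 239 counts, it is a further gene of these pathways with shared exons and few counts. Whether reads over shared exons were dropped in the counting was not tested.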
